A study of Mus musculus with 6 samples.

Results

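The cytosolic ribosomal protein genes are the protein-coding mouse genes named Rpl or Rps with a number, together with Rplp0, Rplp1, Rplp2 and Rpsa, and were chosen by symbol alone. Of 82 such genes in the annotation, 80 had a row among the 23073 genes with a value, 49 of the large and 31 of the small subunit, while Rpl24 and Rpl41 were not analysed here. RNA was sequenced from the diaphragm of mouse embryos at E14.75 in 6 libraries, 2 for each of 3 groups, which the series describes as biological replicates. The erbB3 wild-type group (replicates 5 and 6) and the erbB3 mutant group (replicates 1 and 2, erbB3 knock-out embryos, whose muscle lacks Schwann cells) were total RNA of whole muscle. The Wnt1-Ribotag group (replicates 1 and 2) was labelled erbB3 wild-type, Wnt1-Cre and Ribotag, and its RNA was recovered with antibodies to hemagglutinin from polysomes of pooled diaphragms of a litter. By the paper's account whole litters were homogenized before genotyping, which found only part of the embryos Cre-positive, and these were hemizygous for the Ribotag allele. Wnt1-Cre acts in neural crest cells and their descendants, which are not Schwann cells alone. The ribosome-bound libraries were also made from far less RNA than the whole-muscle libraries, so the preparation, the cell types captured and the Cre and Ribotag alleles cannot be told apart in any comparison with whole muscle, nor can the genotype in the comparison with mutants.

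Ribosomal proteins, with the ribosomal RNAs, build the large and small ribosomal subunits, and a growing cell devotes much of its transcription to them. Many of their messages begin with a terminal oligopyrimidine (TOP) tract, a C followed by a run of C and T, through which nutrient and growth factor signalling by mTOR controls their translation. Rpl22 is a protein of the large subunit that is not required for protein synthesis as such. In Ribotag mice, Cre replaces the last exon of Rpl22 with a copy that adds a hemagglutinin tag, so ribosomes of the Cre-positive cells can be pulled down with the messages they carry. Rpl22l1 is the paralog of Rpl22, and Rpl22 protein is known to restrain Rpl22l1.

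A start listed in the RefSeq table (build GRCm38.p6) is shown for Rpl22, for Rpl22l1 and for the 7 ribosomal protein genes that were lower in Wnt1-Ribotag than in whole muscle and have an entry there, because these are the genes on which the comparisons below turn. Each line gives 15 bases before and 15 bases from the listed start on, 5′ to 3′ on the strand of the gene, and capitals mark the unbroken run of C and T that begins at the start base. Where the table lists 2 starts (Rpl22, Rps21 and Rpl34), the one nearer to the start of the principal GENCODE transcript is shown.
Rpl22, chr4:152325711-152325740, plus strand: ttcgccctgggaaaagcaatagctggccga
Rpl22l1, chr3:28805493-28805522, plus strand: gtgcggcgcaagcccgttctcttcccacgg
Rpl27, chr11:101442230-101442259, plus strand: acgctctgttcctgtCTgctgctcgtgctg
Rps21, chr2:180257364-180257393, plus strand: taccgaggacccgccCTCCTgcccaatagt
Rps10, chr17:27635230-27635259, minus strand: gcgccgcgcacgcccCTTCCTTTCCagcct
Rpl34, chr3:130730323-130730352, minus strand: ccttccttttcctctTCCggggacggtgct
Rps15a, chr7:118116133-118116162, minus strand: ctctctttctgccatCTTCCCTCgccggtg
Rpl10, chrX:74270801-74270830, plus strand: gttgttacagtggaagataggccgcctata
Rps13, chr7:116334176-116334205, minus strand: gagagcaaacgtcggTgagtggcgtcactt
At the starts shown, Rps10, Rps15a and Rps21 had a C and at least 4 further pyrimidines. The start shown for Rpl22 had no such run, and the 15 bases from the start of Rpl22l1 on held a run of 10 pyrimidines that began at base 2. Of the 60 ribosomal protein genes with an entry in the table, 13 (21.7%) had a C and at least 4 pyrimidines exactly at a listed start, against 2.97% of the 26965 other genes. The starts shown lay up to 301 bases from the start of the principal transcript, with 301 for Rps10, 127 for Rpl22, 72 for Rpl22l1, 53 for Rpl27, 41 for Rps15a and at most 5 for the other 4 genes, and the window of Rpl22 ends before the first base of its GENCODE gene. Which start is used in the diaphragm was not measured, and the share counts exact matches only.

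The libraries matched their labels by a Schwann cell marker. Sox10, the transcription factor of Schwann cells and their precursors, stood at 2.16 and 2.89 RPKM (mapped reads per gene, scaled to gene length and to all mapped reads of the library) in erbB3 wild-type muscle, 0.00854 and 0.0178 in mutants and 15.5 and 32.2 in Wnt1-Ribotag. Erbb3 itself did not separate the genotypes, at 11.9 and 21.5 RPKM in mutants and 15.8 and 16.5 RPKM in wild-type muscle, and a value for the whole gene does not check a mutant allele that is still transcribed. The value listed for undetected genes implied between 100178863 and 230216660 mapped reads per library.

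Ribosomal protein messages were among the most abundant of the diaphragm, and 50 of the 100 genes with the highest mean RPKM were ribosomal protein genes. Their summed RPKM made up 13.4% and 12.3% of all RPKM in erbB3 wild-type muscle, 13.5% and 16.7% in mutants and 11.8% and 13.5% in Wnt1-Ribotag. Both mutants lay above both wild-type libraries, replicate 1 only just, and the Wnt1-Ribotag values overlapped those of both groups. Mutant replicate 2 was highest and Wnt1-Ribotag replicate 1 lowest. Large-subunit genes took between 6.34% and 8.80% of the RPKM of a library and small-subunit genes between 5.43% and 7.91%, and both subunits were highest in mutant replicate 2 and lowest in Wnt1-Ribotag replicate 1.

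Single ribosomal protein genes differed widely in level. The gene with the highest mean, Rplp1, an acidic protein of the stalk that recruits elongation factors, had 2488 and 1953 RPKM in wild-type muscle, 2361 and 3070 in mutants and 1229 and 1336 in Wnt1-Ribotag. Rps26, which lies at the exit of the mRNA channel, averaged 1621 RPKM over the 6 libraries and Rpl23a, which lies beside the peptide exit tunnel, 1566. Rps12, of the small subunit, averaged 1499 RPKM. Of the 80 genes, 77 passed the filter for testing, a mean of at least 0.5 RPKM, and 75 of them averaged at least 100 RPKM. Over the 77 genes, the log2 levels of any 2 libraries correlated with a Pearson r between 0.922 and 0.996, which is a description across genes and not across independent replicates.

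**Figure D1:**
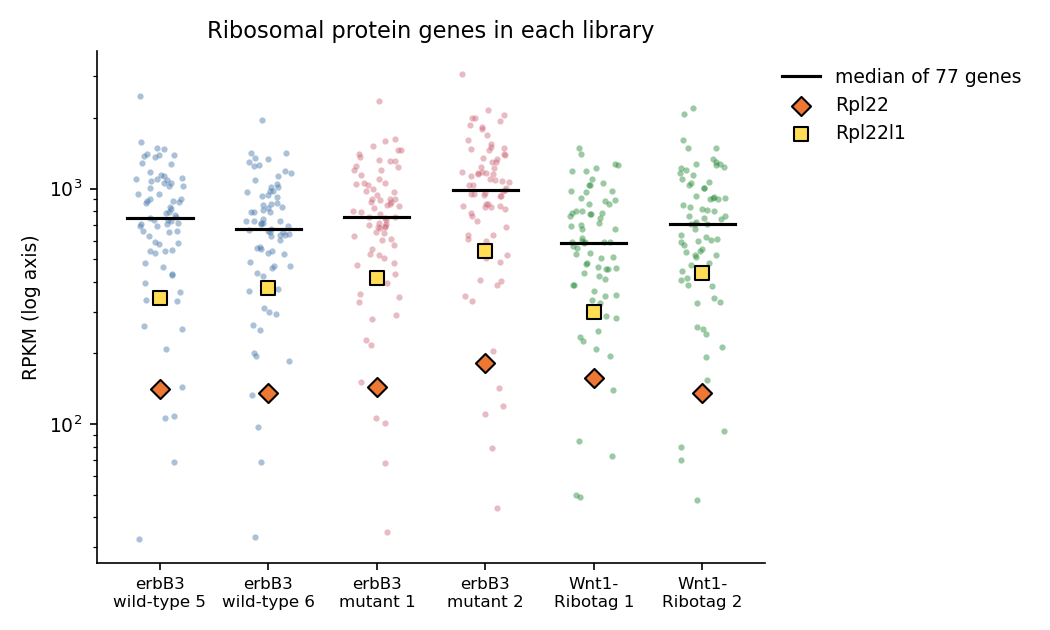
RPKM (log axis) of the 77 ribosomal protein genes with a mean of at least 0.5 RPKM, in each of the 6 libraries. Each dot is a gene, the black line is the median, the diamond is Rpl22 and the square is Rpl22l1. The medians run from 590 RPKM in Wnt1-Ribotag replicate 1 to 989 RPKM in mutant replicate 2, and Rpl22 lies below Rpl22l1 in every library.

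The paralogs split into expressed and nearly silent genes. Rpl10l, Rpl39l and Rpl3l did not pass the filter. Rpl3l, the striated-muscle form of Rpl3, had between 0.0472 and 0.150 RPKM, where Rpl3 had between 696 and 1166. Rpl10l, a testis gene, stayed at or below 0.0293 RPKM against 509 to 1182 for Rpl10. Rpl39l had between 0.217 and 0.337 RPKM in the 4 whole-muscle libraries and was listed as undetected in both Wnt1-Ribotag libraries, and Rpl39 had between 375 and 612 RPKM. Rps27l reached between 72.8 and 142 RPKM, which was 6.07% to 7.42% of its sum with Rps27. Rpl7l1, which works in ribosome assembly rather than in the finished ribosome, had between 47.3 and 78.7 RPKM, or 5.82% to 8.91% of its sum with Rpl7. In whole muscle Rpl7l1 took between 7.65% and 8.91% of that sum, and in Wnt1-Ribotag 7.50% and 5.82%. Rps4l, which the annotation lists as a transcribed processed pseudogene and which is therefore not counted here, had between 24.1 and 41.7 RPKM beside 1056 to 1990 for Rps4x.

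Rpl22, the gene that carries the tag, had 140 and 135 RPKM in erbB3 wild-type muscle, 144 and 182 RPKM in mutants and 156 and 135 RPKM in Wnt1-Ribotag. All 6 values lay between 135 and 182 RPKM. Both mutants lay above both wild-type libraries, replicate 1 only just, and the Wnt1-Ribotag values overlapped those of both groups. In GRCm38 the gene (ENSMUSG00000028936) runs along chr4:152325742-152334071, while the reads had been mapped to mm9. Rpl22 ranked 72 or 73 of 77 ribosomal protein genes in every library, a log2 difference of -2.44 to -1.91 from the median ribosomal protein gene. The value nearest to that median came from Wnt1-Ribotag replicate 1, and replicate 2 of the same group, at -2.38, lay among the whole-muscle libraries. Whether reads of the tagged exon were counted in Rpl22 is not given in the sources used here.

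Rpl22l1 (ENSMUSG00000039221, chr3:28805436-28807424 in GRCm38) stood above Rpl22 in every library, with 343 and 380 RPKM in wild-type muscle, 415 and 543 in mutants and 300 and 439 in Wnt1-Ribotag. It ranked between 59 and 65 of 77. Both mutants lay above both wild-type libraries, and the Wnt1-Ribotag values spanned the wild-type ones. Both genes have 4 exons in the principal transcript, and RPKM is scaled by gene length, though the lengths behind the deposited values are not stated.

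The ratio of Rpl22l1 to Rpl22 does not change when all values of a library are scaled by a common factor, though quantile normalization can change it. It was 2.45 and 2.81 in wild-type muscle, 2.88 and 2.99 in mutants and 1.92 and 3.24 in Wnt1-Ribotag. The lowest and the highest ratio of the series therefore came from the replicates of the ribosome-bound group. The log2 ratio averaged 1.39 ± 0.14 (SD, n = 2) for wild-type muscle, 1.55 ± 0.035 (SD, n = 2) for mutants and 1.32 ± 0.54 (SD, n = 2) for Wnt1-Ribotag. In an exact two-sided permutation test of the log2 ratio, mutants and wild-type differed by 0.16 (p = 0.33, the smallest that 2 against 2 libraries can give), Wnt1-Ribotag and wild-type by -0.071 (p = 1.0) and Wnt1-Ribotag and mutants by -0.24 (p = 1.0). Against the 4 whole-muscle libraries the difference of Wnt1-Ribotag was -0.15 in the same exact test (p = 0.67, where 0.13 is the smallest possible). The adjusted p over these 4 exact tests was 1.0 for each. Without Wnt1-Ribotag replicate 1 the 3 differences of Wnt1-Ribotag became 0.31, 0.14 and 0.23, so their sign rests on that library.

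Neither gene passed the test in any comparison of groups. The test was limma on log2(RPKM + 0.5) over all genes with a mean of at least 0.5 RPKM, with p-values adjusted over all of them by the Benjamini-Hochberg method, and a fold change below is on that scale. For Rpl22 the log2 fold change was 0.23 ± 0.16 (SE, adjusted p = 0.52) in erbB3 mutant vs. wild-type muscle, 0.078 ± 0.17 (adjusted p = 0.82) in Wnt1-Ribotag vs. wild-type and -0.037 ± 0.16 (adjusted p = 0.90) in Wnt1-Ribotag vs. whole muscle. For Rpl22l1 the values in the same order were 0.39 ± 0.19 (adjusted p = 0.43), 0.0071 ± 0.24 (adjusted p = 0.99) and -0.19 ± 0.21 (adjusted p = 0.57). Against the median ribosomal protein gene rather than all RNA, Rpl22 was 0.25 higher in Wnt1-Ribotag than in whole muscle (adjusted p = 0.43) and Rpl22l1 0.094 higher (adjusted p = 0.74), and the higher Rpl22 of mutants vs. wild-type became -0.049. In mutants vs. wild-type, Rpl22 was at 0.062 and Rpl22l1 at 0.20 without mutant replicate 2, and at 0.40 and 0.59 without replicate 1. In Wnt1-Ribotag vs. mutant muscle Rpl22 had a value of -0.15 ± 0.24 (adjusted p = 0.76) and Rpl22l1 one of -0.39 ± 0.28 (adjusted p = 0.49).

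The comparison of erbB3 mutant and wild-type muscle asks how muscle RNA changes where Schwann cells are missing. The paper reports that denervation of the mutant diaphragm was maximal at this age. Loss of erbB3, of Schwann cells and of motor innervation therefore cannot be told apart here. No ribosomal protein gene passed the test (0 of 77, where 0.171% of the 14052 genes tested did), and 1 gene, Rpl26, had an unadjusted p under 0.05, as did 12% of all genes. The values nevertheless leaned to higher levels in mutants. Of the 77 genes, 75 had a positive fold change, as did 4638 of all 14052 genes, with a median of 0.29 (log2) beside -0.10 over all genes. The median of the 77 genes was 0.11 after quantile normalization and 0.41 with median-ratio scaling. Both mutants lay above both wild-type libraries for 42 of the 77 genes (background 12.7%).

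Mutant replicate 2 stood apart from the other whole-muscle libraries in these genes. The median log2 difference of the 77 genes was 0.39 and 0.55 from mutant replicate 2 to wild-type replicates 5 and 6, but 0.023 and 0.16 from mutant replicate 1 to the same libraries. The mutants differed from each other by a median of 0.36, with 76 of 77 genes higher in replicate 2, which is more than the difference between the groups. Without mutant replicate 2, the median fold change of the comparison was 0.099, and without mutant replicate 1 it was 0.47.

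Rpl26, a large-subunit protein near the tunnel exit, had 547 and 470 RPKM in wild-type muscle and 677 and 845 in mutants (log2 fold change 0.58, SE 0.19, adjusted p = 0.37). Rps28 had 1053 and 965 RPKM in wild-type and 1238 and 1555 in mutants (0.46 ± 0.21, adjusted p = 0.42). Rps29 had 1136 and 1012 RPKM in wild-type and 1312 and 1604 in mutants (0.44 ± 0.21, adjusted p = 0.43). In these 3 genes and in Rpl22l1 both mutants lay above both wild-type libraries, and these were the 4 largest such differences. No ribosomal protein gene was lower in every pair of libraries (0 of 77, background 37.4%). Rps2 and Rpl29, named after their values were seen, were the 2 genes with a negative fold change (-0.45 and -0.29), and both rested on single libraries. Rps2, which sits at the mRNA entry of the small subunit, had 106 and 194 RPKM in wild-type muscle and 100 and 110 in mutants. Rpl29, a protein of the large-subunit surface, had 208 and 185 RPKM in wild-type and 215 and 119 in mutants, and its fold change was 0.13 without mutant replicate 2.

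Some lists of other genes leaned the same way and others did not. Of 78 subunits of oxidative phosphorylation, which include Atp5b, Atp5g3 and Cox6b1, 69 had a positive fold change and 0 passed the test in mutants vs. wild-type (18 with an unadjusted p under 0.05), with a median of 0.30. Of 76 mitochondrial ribosomal proteins, led in level by Mrpl42, Mrpl52 and Mrpl12, 60 were positive and 0 passed (3 unadjusted), with a median of 0.13. Of 15 other messages with TOP tracts, led by Eef1a1, Tpt1 and Eef2, 10 were positive and 0 passed (0 unadjusted), with a median of 0.050. Of 49 genes of ribosome biogenesis 27 were positive, with a median of 0.070, and of 52 translation initiation factors 22, with a median of -0.036, and 0 of either list passed (2 and 5 unadjusted). The 5 ribosomal proteins named otherwise (Rps3a1, Fau, Rack1 and Rpl36al among them) were all positive, between 0.14 and 0.33, and 0 of 5 passed or had an unadjusted p under 0.05.

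Fold changes also followed transcript length in mutants vs. wild-type. The principal transcripts of the 77 genes had a median length of 780 nucleotides. Among genes other than ribosomal proteins, the log2 fold change centred at 0.13 where the transcript was at most 1000 nucleotides long (771 genes) and -0.17 where it was over 3000 (6281 genes), while the 52 ribosomal protein genes of at most 1000 nucleotides had a median of 0.29. Markers of some other cells differed between the groups as well. All 10 neuronal markers tested had a negative fold change in mutants (median -1.46, 7 with an unadjusted p under 0.05, 0 past the test). The neuronal list summed to 10.96 and 14.6 RPKM in mutant replicates 1 and 2. In wild-type replicates 5 and 6 it summed to 17.05 and 80.7, so replicate 5 lay only just above the mutants. Of 12 erythroid markers 10 had a negative fold change (median -0.36, 4 unadjusted, 0 past the test). Their summed RPKM was 11679 and 9476 in the same mutants, between the 14967 and 7788 of wild-type replicates 5 and 6. In mutants 3 of 15 Schwann cell markers tested, Sox10 among them, and 2 of 14 liver markers passed the test as lower, and none of either list as higher. The summed RPKM of the liver markers was 22.7 and 13.8 in mutant replicates 1 and 2 and 550 and 169 in wild-type replicates 5 and 6. That of 25 skeletal muscle markers was 8598 and 5974 in the same mutants and 5110 and 4222 in wild-type muscle. It was thus highest in mutant replicate 1, whereas the ribosomal protein genes were highest in replicate 2. Of these 25 markers 17 were positive and 8 negative, with a median of 0.18 and 0 past the test (8 unadjusted). The most abundant, Mylpf, had 2325 and 2068 RPKM in mutants and 1293 and 995 in wild-type muscle. The next, Acta1, had 1314.5 and 507 RPKM in mutants and 796 and 671 in wild-type muscle. The part of length and of these cells in the ribosomal protein values was not tested. In bulk tissue, fewer cells of a type and less RNA per cell cannot be told apart.

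**Figure D2:**
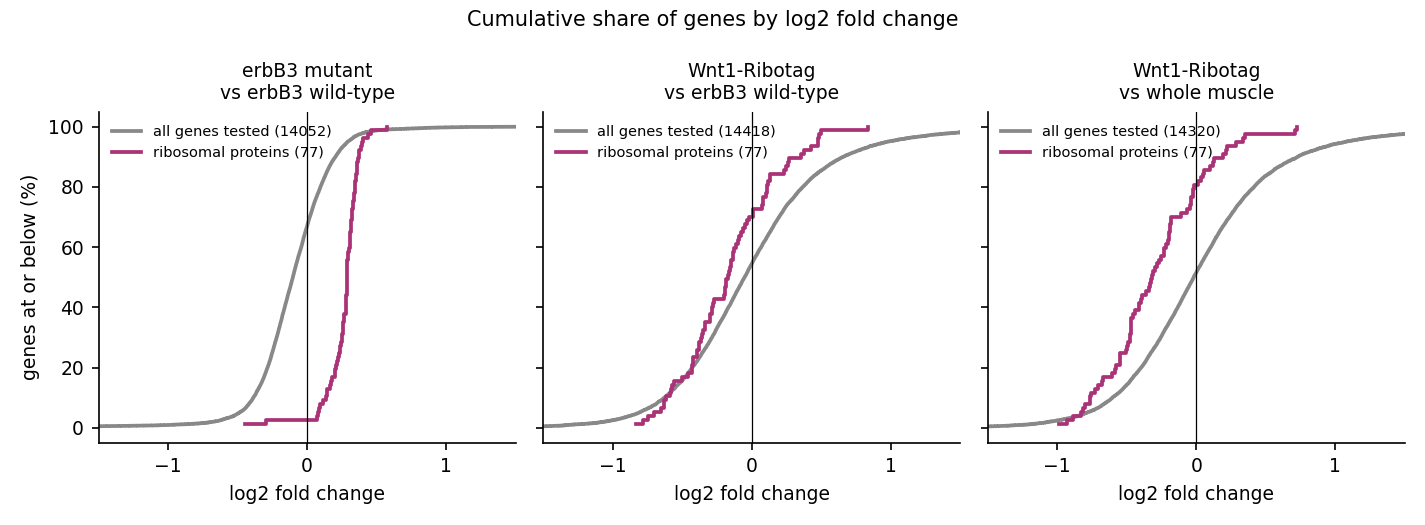
Cumulative share of genes (%) at or below each log2 fold change, for all genes tested (grey) and the 77 ribosomal protein genes (purple), in 3 comparisons, with the axis shown from -1.5 to 1.5. The ribosomal protein curve is shifted right in erbB3 mutant vs. wild-type muscle (median 0.29 against -0.10) and left in Wnt1-Ribotag vs. whole muscle (median -0.32 against -0.018).

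Comparing Wnt1-Ribotag with whole muscle sets the RNA recovered with tagged ribosomes against the RNA of the tissue. The recovered RNA also held messages of cells that Wnt1-Cre is not known to mark, and its summed skeletal muscle markers, given below, lay within the range of wild-type muscle. Against the 4 whole-muscle libraries, in a fit of all 6 libraries, 9 of 77 ribosomal protein genes were lower in Wnt1-Ribotag and 0 higher, where 9.04% of the 14320 genes tested passed, 4.07% as lower. At an unadjusted p under 0.05 there were 31 of 77 genes, beside 30.8% of all genes. The ribosomal protein genes had a median of -0.32 (log2), all genes one of -0.018, and 62 of the 77 values were negative. After quantile normalization the medians were -0.039 and -0.073, and without Wnt1-Ribotag replicate 1 that of the ribosomal protein genes was -0.20. Both Wnt1-Ribotag libraries lay below all 4 whole-muscle libraries for 35 of the 77 genes (background 20.8%).

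The 9 genes belonged to both subunits. Rpl27, of the large subunit, had 349 and 408 RPKM in Wnt1-Ribotag, 710 and 637 in wild-type muscle and 700 and 989 in mutants (log2 fold change -0.98, SE 0.19, adjusted p = 0.033). The stalk protein Rplp1, whose values are given above, was also lower, at -0.93 ± 0.20 (adjusted p = 0.039). Its partners in the stalk moved less, with -0.25 for Rplp0 (adjusted p = 0.37) and -0.23 for Rplp2 (adjusted p = 0.38). Whether Rplp1 differed from its partners was not tested.

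Rps21, a small-subunit protein, had 413 and 536 RPKM in Wnt1-Ribotag, 820 and 713 in wild-type muscle and 862 and 1133 in mutants (log2 fold change -0.89 ± 0.20, adjusted p = 0.042). Rps10, a protein of the small-subunit head, had 287 and 329 RPKM in Wnt1-Ribotag, 545 and 487 in wild-type and 526 and 636 in mutants (-0.83 ± 0.16, adjusted p = 0.033). Rpl34 had 368 and 388 RPKM in Wnt1-Ribotag against 565 to 845 in whole muscle (-0.81 ± 0.17, adjusted p = 0.038). In these genes, as in the 6 others, no Wnt1-Ribotag value reached the lowest whole-muscle value.

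Rps15a, which has processed copies whose part in its level was not tested, had 84.7 and 93.5 RPKM in Wnt1-Ribotag against 133 to 203 in whole muscle (-0.80 ± 0.17, adjusted p = 0.039). Rpl10, which joins the large subunit late in its maturation, had 509 and 600 RPKM against 813 to 1182 (-0.77 ± 0.18, adjusted p = 0.047). Rps13, of the small subunit, had 439 and 447 RPKM against 657 to 832 (-0.67 ± 0.15, adjusted p = 0.045). The adjusted p-values of all 9 genes lay just under the threshold of 0.05, and none of the 9 calls was kept when any 1 of the 4 whole-muscle libraries was left out. Without Wnt1-Ribotag replicate 2 the count was 20, all lower, or 26% of the 77 genes where 37.9% of all genes passed. Without replicate 1 it was 7, of which 6 were lower, or 9.09% where 25.9% of all genes passed.

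At the other end, Rpl21 was the 1 gene for which both Wnt1-Ribotag libraries lay above all 4 whole-muscle libraries (background 19.7%). It had 48.9 and 70.4 RPKM in Wnt1-Ribotag and between 32.2 and 43.9 in whole muscle (log2 fold change 0.71 ± 0.19, adjusted p = 0.062), and was the lowest of the 77 genes by mean RPKM. Rps2 had 194 and 211 RPKM in Wnt1-Ribotag. Its value in wild-type replicate 6 was also 194, and the other 3 whole-muscle libraries lay between 100 and 110 RPKM, so that the difference (0.72 ± 0.24, adjusted p = 0.10) did not hold against every library.

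The order of the 77 genes in Wnt1-Ribotag vs. muscle recurred in separate libraries, while that in mutants vs. wild-type did not. The log2 differences of Wnt1-Ribotag replicate 1 from wild-type replicate 5 and of Wnt1-Ribotag replicate 2 from wild-type replicate 6, pairs that share no library, had a Pearson r of 0.73 over the 77 genes, and 0.79 with the wild-type libraries exchanged. The same differences of the mutants had an r of 0.11 and 0.19. Genes are not independent replicates, and libraries of 1 preparation share whatever that preparation does to a gene, so these are descriptions.

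**Figure D3:**
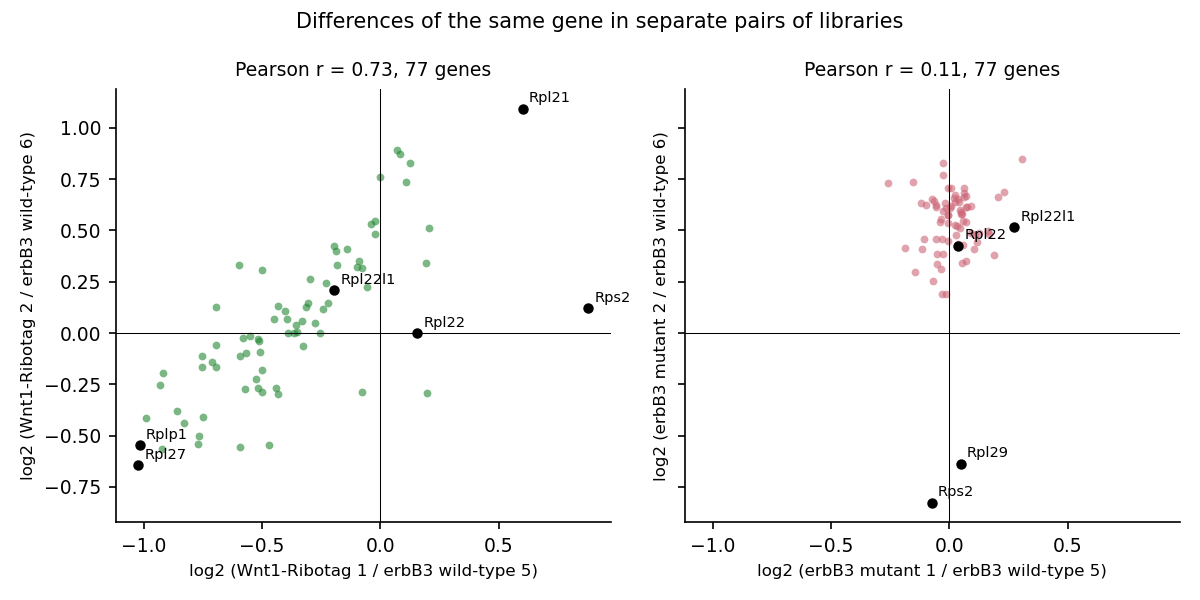
Log2 RPKM difference of each of the 77 ribosomal protein genes in a pair of libraries (x axis) against the difference in a second pair that shares no library with the first (y axis), for Wnt1-Ribotag against wild-type muscle (left) and mutants against wild-type (right). Points rise from Rpl27 and Rplp1 at the lower left to Rpl21 at the upper right in the left panel (r = 0.73) and form a cloud with most genes above 0 on the y axis in the right panel (r = 0.11), where Rps2 and Rpl29 lie apart.

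Measured against the median ribosomal protein gene, the values of Wnt1-Ribotag vs. whole muscle lie on both sides of 0 by construction, and without that centring 9 genes passed as lower and 0 as higher. When libraries were centred on the median of the 77 genes, which shifted all genes together, from a median of -0.018 to one of 0.24, 18 of 77 genes passed the test in Wnt1-Ribotag vs. whole muscle, 9 in each direction, where 10.6% of all genes passed. The relatively higher ones were Rps2 (1.01), Rpl21 (0.99), Rpl14 (0.63), Rps3 (0.62), Rpl23a (0.57), Rps26 (0.50), Rpl23 (0.50), Rpl26 (0.47) and Rpl31 (0.41). Rps3, a protein of the mRNA entry that also acts in DNA repair, and Rpl23, known to bind Mdm2, belong to them. The relatively lower ones included Rpl27 (-0.70), Rplp1 (-0.64), Rps21 (-0.60), Rps10 (-0.54), Rpl34 (-0.53), Rpl10 (-0.48), Rps16 (-0.47) and Rps29 (-0.39). Several of these 18 genes were named after their values were seen.

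**Figure D4:**
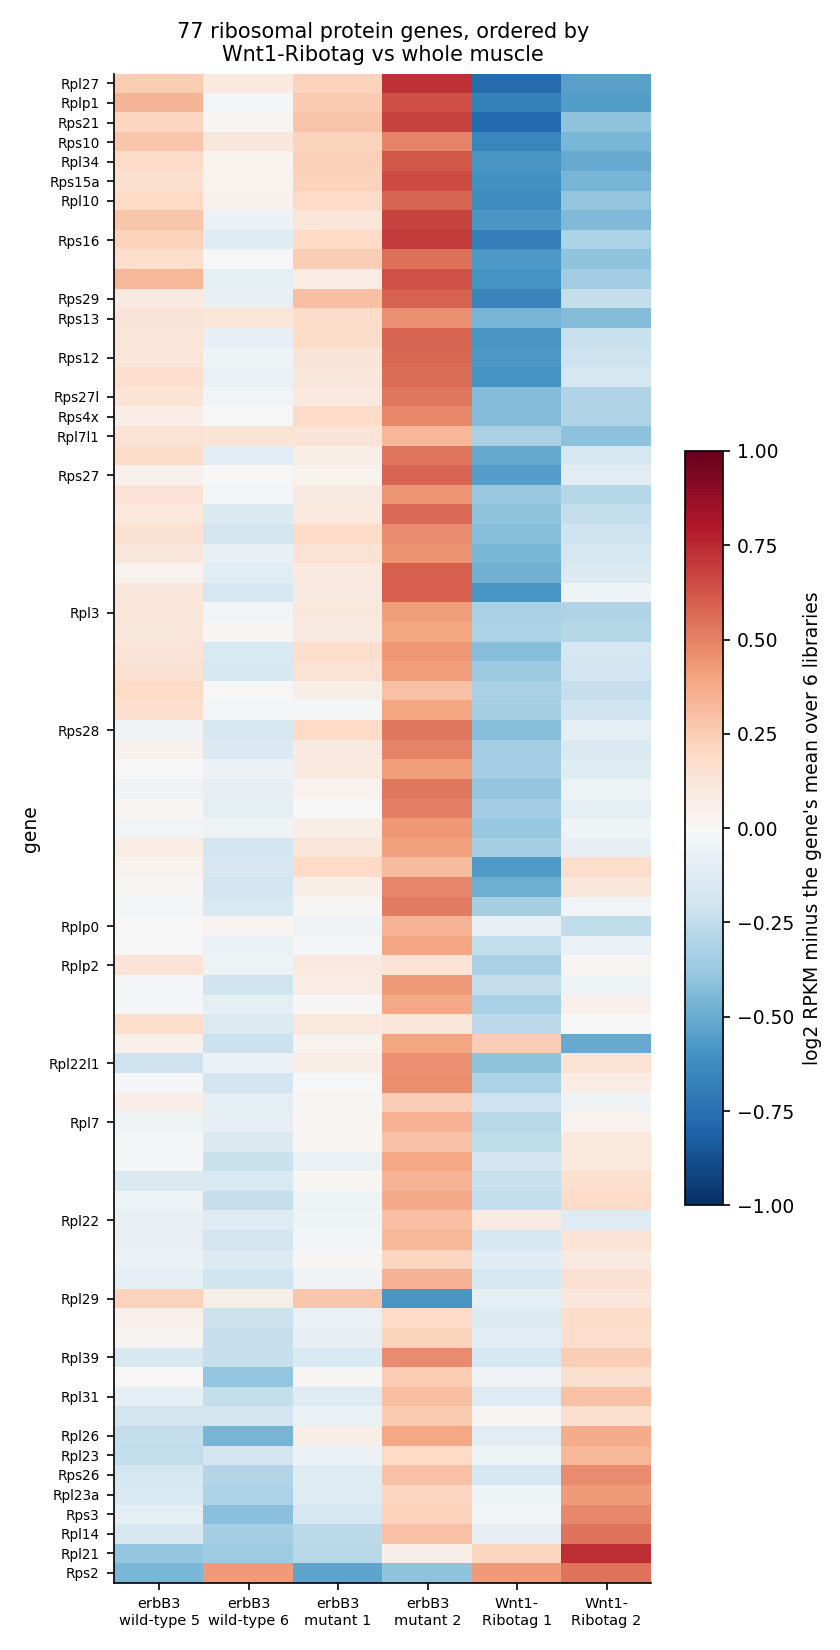
Log2 RPKM of the 77 ribosomal protein genes (rows, with the names of the genes described in the text) in the 6 libraries (columns) relative to the mean of the gene over all libraries, ordered from the lowest to the highest difference between Wnt1-Ribotag and whole muscle. Red is higher and blue lower, mutant replicate 2 is red in nearly all rows, and the upper rows are blue in both Wnt1-Ribotag libraries, from Rpl27 (-0.98) down.

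Against wild-type muscle alone, no ribosomal protein gene passed the test (0 of 77, background 0.00694% of 14418 genes), and 14 (13 of them lower) had an unadjusted p under 0.05, a share near the 19.5% of all genes. Their median was -0.17 (log2), that of all genes -0.051, and that of the ribosomal proteins 0.0050 after quantile normalization. Of the 77 values 54 were negative, and both Wnt1-Ribotag libraries lay below both wild-type libraries for 35 genes (background 31%) and above them for 7 (background 23.3%). The 4 largest falls in all pairs of libraries were those of Rpl27 (-0.83 ± 0.18, adjusted p = 0.17), Rplp1 (-0.78 ± 0.20, adjusted p = 0.18), Rps10 (-0.74 ± 0.17, adjusted p = 0.18) and Rps21 (-0.70 ± 0.21, adjusted p = 0.20). The 4 largest rises were those of Rpl21 (0.84 ± 0.22, adjusted p = 0.19), Rps3 (0.48 ± 0.25, adjusted p = 0.35), Rpl14 (0.48 ± 0.26, adjusted p = 0.37) and Rpl26 (0.48 ± 0.23, adjusted p = 0.33). Rpl14 had 780 and 1200 RPKM in Wnt1-Ribotag and 735 and 654 in wild-type muscle, and Rps3 had 572 and 815 against 546 and 438. In both the lower Wnt1-Ribotag library lay just above the higher wild-type one.

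Against mutants, 0 of 77 genes passed (background 1.19% of 14325 genes), 25 (24 of them lower) had an unadjusted p under 0.05, beside 19.3% of all genes, and the medians were -0.46 (log2) for the 77 genes and 0.036 for all genes. The median of the 77 genes was -0.27 without mutant replicate 2 and -0.65 without replicate 1, and after quantile normalization it was -0.12 beside -0.070 for all genes. With the replicate number as a block, 30 of 77 genes passed, where 5.88% of all genes did. Both Wnt1-Ribotag libraries lay below both mutants for 48 genes (background 24.4%). Rps2, named after its values were seen, had the highest value (0.95 ± 0.21, adjusted p = 0.11). This comparison shares its libraries with those above, and mutant replicate 2 takes part in it.

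The Wnt1-Ribotag replicates differed from each other in these genes as well. The median log2 difference from replicate 1 to replicate 2 was 0.28, with 73 of 77 genes higher in replicate 2, and the same median over genes with a transcript of at most 1000 nucleotides that are not ribosomal proteins was 0.46 between the same libraries. Replicate 1 lay below wild-type replicates 5 and 6 by a median of 0.39 and 0.26, whereas replicate 2 lay 0.11 below wild-type replicate 5 and 0.0024 above wild-type replicate 6.

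Transcript length accompanied the fold change of other genes in the ribosome-bound comparison too, in the opposite sense to the mutants. The other genes centred at a log2 value of -0.24 in Wnt1-Ribotag vs. whole muscle where the transcript was at most 1000 nucleotides long (793 genes), and 0.055 where it was over 3000 (6391 genes). The 52 ribosomal protein genes in the shorter class had a median of -0.38 and the 21 genes between 1000 and 2000 nucleotides one of -0.18, beside -0.092 for the 2888 other genes of that length. Within the 77 genes, the fold change had a Spearman correlation of 0.19 with transcript length and of -0.26 with GC content, as a description across genes. By exonic length of the gene model, the other protein-coding genes kept this order, from -0.36 at up to 1000 nucleotides to 0.024 at over 3000. The ribosomal protein genes did not follow it, with medians of -0.49 (10 genes), -0.22 (31 genes), -0.45 (20 genes) and -0.32 (16 genes) from the shortest to the longest class, and of 0.30, 0.29, 0.27 and 0.29 in mutants vs. wild-type. The part of length in the ribosomal protein values was not tested.

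**Figure D5:**
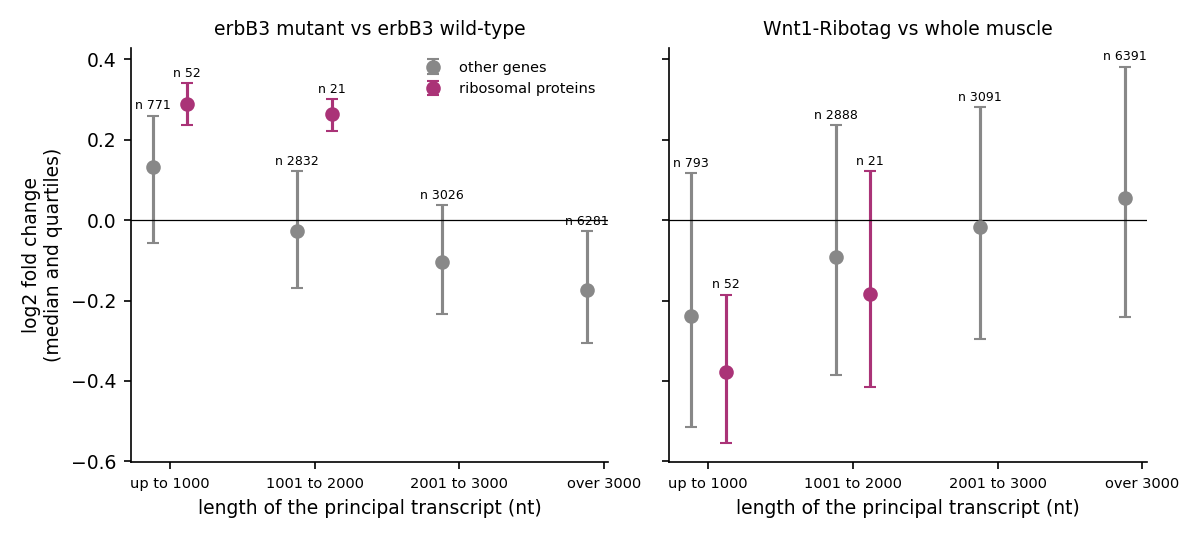
Median log2 fold change with quartiles (bars) of ribosomal protein genes (purple) and other genes (grey) by length of the principal transcript in nucleotides, in erbB3 mutant vs. wild-type muscle (left) and Wnt1-Ribotag vs. whole muscle (right), with the number of genes above each bar and classes of under 20 genes left out. Short other genes lie highest on the left (0.13) and lowest on the right (-0.24), and the short ribosomal protein genes lie beyond them on both sides (0.29 and -0.38).

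The listed starts of the ribosomal protein genes, of which only some are shown above, were set beside the fold changes. In Wnt1-Ribotag vs. whole muscle the 13 genes with a C and at least 4 pyrimidines at a listed start centred at -0.47 (log2) and the 44 tested genes whose listed starts lack it at -0.26. In erbB3 mutant vs. wild-type muscle the medians were 0.28 and 0.29. These are descriptions of genes whose starts are listed, without a test.

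Other genes of translation did not all share the lower values in Wnt1-Ribotag vs. whole muscle. Of the 15 other TOP messages 8 were positive, the median was 0.025, and 1 passed the test, Pabpc1, the cytoplasmic poly(A)-binding protein, which was higher (1.72, adjusted p = 0.039). Eef1a1, the abundant elongation factor of this list, had between 3478 and 3932 RPKM in all 6 libraries, with both Wnt1-Ribotag values inside the whole-muscle range. Of 49 genes of ribosome biogenesis, led by Npm1, Ncl and Fbl, 44 were negative, the median was -0.35 and 5 passed, all lower: Nhp2, Heatr1, Pes1, Nip7 and Tcof1. Of 76 mitochondrial ribosomal proteins 65 were negative, with a median of -0.28, 5 lower and 1 higher. Of 78 oxidative phosphorylation subunits 72 were negative, with a median of -0.46, 5 lower and 1 higher. Of 52 translation initiation factors, led by Eif5a, Eif4a1 and Eif4g2, 36 were negative, with a median of -0.18, 3 lower and 1 higher. Whether any of these lists differed from the ribosomal proteins was not tested.

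The ribosomal proteins with other names were not called in Wnt1-Ribotag vs. whole muscle (0 of 5, with 3 at an unadjusted p under 0.05). Rack1, the scaffold on the small-subunit head, had 422 and 427 RPKM in Wnt1-Ribotag and between 553 and 693 in whole muscle (-0.53 ± 0.15, adjusted p = 0.070). Fau, a fusion of a ubiquitin-like protein with a small-subunit protein, had 784 and 859 RPKM against 664 to 1038 (0.075 ± 0.21, adjusted p = 0.84). Rps3a1 had 1320 and 1482 RPKM against 1334 to 1826 (-0.11 ± 0.16, adjusted p = 0.68), and Rpl36al 86.1 and 115 against 113 to 167 (-0.44 ± 0.18, adjusted p = 0.15).

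The cell types of the 2 kinds of RNA differed by their markers. In Wnt1-Ribotag vs. whole muscle 13 of 18 Schwann cell, 9 of 12 neuronal and 4 of 14 liver markers passed as higher, and 5 of 10 macrophage and 3 of 12 connective tissue markers as lower. Against wild-type muscle alone 0 of 14 liver markers passed (0 unadjusted), with 8 positive and a median of 0.043. The summed RPKM of the Schwann cell list was 347 and 792 in Wnt1-Ribotag and between 110 and 153 in whole muscle, and that of the neuronal list 151 and 637 against 10.96 to 80.7. The macrophage sum was 107 and 111 against 161 to 210. The 25 skeletal muscle markers, of which 1 passed as lower, summed to 4691 and 4424 RPKM in Wnt1-Ribotag, 5110 and 4222 in wild-type muscle and 8598 and 5974 in mutants. The Wnt1-Ribotag sums thus lay within the wild-type range, and against wild-type muscle alone 15 of 25 muscle markers were positive, with a median of 0.093 and 0 past the test (4 unadjusted). The part of the cell types in the ribosomal protein values was not tested.

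Values of single ribosomal protein genes carry a further limit, because these genes have many processed copies in the genome and the treatment of reads that match several places is not given in the sources used here. Of 5 ribosomal protein pseudogenes with a row, Rps27a-ps2 had between 1048 and 1874 RPKM. Rps15a-ps6 and Rps15a-ps4 had between 317 and 840 and between 255 and 650 RPKM, above the 84.7 to 203 RPKM of Rps15a in each library, and both also stood lower in Wnt1-Ribotag than in every whole-muscle library. All 5 pseudogenes had a negative fold change in Wnt1-Ribotag vs. whole muscle, with a median of -0.49 and 0 past the test (3 with an unadjusted p under 0.05). How reads were shared between such copies and their parent genes was not tested.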

How the data were processed

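The members and gene lists were chosen with earlier results of these data known. Per the labels, reads were aligned by the authors with STAR to mm9, and the deposited values are RPKM per Ensembl gene, with a mark for genes at the floor that were not detected. The program behind the RPKM, its annotation and its treatment of multiply mapped reads are not given in the sources used here. Of the identifiers, 21583 matched GENCODE M21 (GRCm38), which gave symbols and lengths, and 1490 did not. Counts were not used, so precision rests on 2 libraries per group. The limma p-values set a difference between groups against the spread between these libraries. That spread was moderated for each gene toward a trend over all genes tested.

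Genes that averaged 0.5 RPKM or more in the libraries compared were tested with limma 3.58.1 (R 4.3.3, eBayes with a trend) on log2(RPKM + 0.5), which understates changes of low genes. Each pair of groups was fitted by itself, and Wnt1-Ribotag vs. whole muscle on all 6 libraries against the mean of both genotypes. Benjamini-Hochberg adjustment covered all genes tested, with a threshold of 0.05. The ratio of Rpl22l1 to Rpl22 was tested by exact permutation (scipy 1.17.1). The procedure was tested on simulated data. Length classes used the principal transcript, and exonic length of the gene model was computed beside it. Mapped reads per library were inferred from floor values at 223 microRNA loci, and 81.2% of these lay within a relative 0.0001 of their median.

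The genes named were Rpl22, Rpl22l1, the paralogs, the 5 members with the highest mean RPKM, every member past the threshold, the 4 largest rises and falls seen in all pairs of libraries in 3 comparisons, ribosomal proteins under other symbols, Sox10 and Erbb3, and the 3 most abundant genes of another list. Some genes that the rule names are not reported here. Alternatives were the pseudocount, the filter, median-ratio and quantile scaling, centring on the members, the trend, the threshold, the libraries in the fit, the replicate block and each library left out.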

Additional observations from a re-analysis of the deposited data

How the results depend on the processing

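In Wnt1-Ribotag vs. whole muscle the count of 9 ribosomal protein genes became 2 without a filter (4.83% of all genes passed), 5 with median-ratio scaling (9.98%), 5 without a trend (7.65%), 11 with quantile normalization, 2 of them higher (11.8%), 18 with libraries centred on the ribosomal proteins (10.6%), 18 at an adjusted p of 0.1 (21%), and 0 to 20 with a library left out. It was 0 without any of the 4 whole-muscle libraries, where between 5 and 110 of all genes passed in a fit with fewer libraries. In Wnt1-Ribotag vs. mutant the count of 0 became 1 without a filter (0.485% of all genes), 11 with centring, 7 higher and 4 lower (11.3%), and 6 with all 6 libraries in the fit (4.74%). It ran from 0 to 6 with a library left out, with 2 higher without Wnt1-Ribotag replicate 1 (17.8%) and 1 higher and 5 lower without replicate 2 (26%). Wnt1-Ribotag and mutant libraries share the numbers 1 and 2, and with these as a replicate block 30 genes passed, 29 of them lower. Deviations of same-numbered libraries correlated at 0.168 over 14325 genes, and nothing in the labels pairs them. In Wnt1-Ribotag vs. wild-type the count of 0 ran to 22 with a library left out (13 without Wnt1-Ribotag replicate 1, where 31% of all genes passed, and 22 without replicate 2, where 41.8% did). In these fits a lone library was taken to vary like the other group. The cause of these shifts was not tested.

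The median log2 fold change of the ribosomal proteins moved, with quantile normalization, to 0.0050 in Wnt1-Ribotag vs. wild-type, -0.12 vs. mutant and -0.039 vs. whole muscle, and ran from -0.33 to -0.029 vs. wild-type with a library left out. Their mean share of RPKM was 15.8%, 18.4% and 15.1% in wild-type, mutant and Wnt1-Ribotag without the 10 highest other genes of a library, and 6.23%, 7.90% and 5.98% when weighted by exonic length.

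Several fold changes that had not passed the test changed sign. With centring, Rpl22 became -0.049 in mutant vs. wild-type, 0.27 in Wnt1-Ribotag vs. mutant and 0.25 vs. whole muscle, and Rpl22l1 0.037 and 0.094 in the latter 2. With quantile normalization Rpl22 became 0.10 vs. mutant and 0.15 vs. whole muscle, and Rpl22l1 0.084 vs. whole muscle. With a library left out, Rpl22 ran from -0.026 to 0.18 in Wnt1-Ribotag vs. wild-type, from -0.32 to 0.016 vs. mutant and from -0.14 to 0.067 vs. whole muscle, and Rpl22l1 from -0.27 to 0.28 vs. wild-type and from -0.46 to 0.084 vs. whole muscle. Their log2 ratio ran from -0.45 to 0.31, from -0.61 to 0.14 and from -0.53 to 0.23 in the same 3 comparisons, each highest without Wnt1-Ribotag replicate 1. Rpl29 in mutant vs. wild-type ran from -0.72 to 0.13. Adjusted p-values of Rpl22 and Rpl22l1 stayed above the threshold under every alternative.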
